A study of Mus musculus with 6 samples.

Results

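The genes described here are 50 of the 24421 genes listed for hippocampal astrocyte RNA, and they are called motile cilia genes here. They were chosen by symbol, with earlier results of these data known. The choice took every listed gene whose symbol is *Dnah*, *Cfap*, *Rsph*, *Tekt* or *Drc* followed by a number, and 8 genes named singly, which are *Foxj1*, *Rfx2*, *Rfx3*, *Ccdc39*, *Ccdc40*, *Ccdc153*, *Tmem212* and *Rarres2*. The rule itself used no measured value. By their known roles, the 50 genes are 5 outer-arm and 6 inner-arm dynein heavy chains, 2 axonemal rulers, 7 radial spoke genes, 17 cilia and flagella associated proteins, 2 subunits of the nexin-dynein regulatory complex, 5 tektins, 3 transcription factors and 3 ependymal markers.

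The study asked how astrocytes respond when microglia die. All mice were adult male *Siglech*dtr/dtr animals of the C57BL/6 strain, which carry a diphtheria toxin receptor at both copies of *Siglech*, a gene active in microglia and in plasmacytoid dendritic cells. They received PBS or diphtheria toxin (DT, 50 µg/kg) by intraperitoneal injection, and the hippocampus was taken 2 days later. Each of the 3 PBS and 3 DT libraries was made from the pooled hippocampi of 2 mice, after microglia had been depleted with CD11b beads and astrocytes captured with beads against astrocyte cell surface antigen-2. Untreated mice, and mice without the receptor that received DT, were not analysed here, so an effect of the toxin itself and an effect of microglial loss cannot be told apart.

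Motile cilia are whip-like organelles built around an axoneme, a cylinder of microtubule doublets with a central pair. Outer and inner dynein arms drive the sliding of the doublets, and radial spokes and the nexin-dynein regulatory complex turn the sliding into bending. In the brain, the cells that bear many motile cilia are the ependymal cells, which line the ventricles and move the cerebrospinal fluid, and the lateral ventricle runs along the hippocampus. FOXJ1 and the RFX factors are the known transcription factors of the programme, and RFX factors also act on genes of the single primary cilium that astrocytes and neurons carry.

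Stretches of promoter are shown here because *Foxj1*, *Rfx2* and *Rfx3* are among the 50 genes. The capitals mark the letters of an RFX or forkhead motif. The bases are the 100 immediately before the RefSeq gene start, on the strand of the gene and in the build GRCm38.p6. In *Cfap44* (chr16:44394699-44394798, plus strand), *Cfap45* (chr1:172521030-172521129, plus strand) and *Cfap58* (chr19:47937612-47937711, plus strand) the capitals are an X-box, the long site that RFX factors bind. In *Dnah10* (chr5:124724985-124725084, plus strand) they are the short RFX motif GTTGCC, and in *Cfap43* (chr19:47837362-47837461, minus strand) they are the forkhead motif TGTTTAC as read from the opposite strand.
Cfap44: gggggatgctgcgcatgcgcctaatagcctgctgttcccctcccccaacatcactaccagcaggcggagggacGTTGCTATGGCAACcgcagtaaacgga
Cfap45: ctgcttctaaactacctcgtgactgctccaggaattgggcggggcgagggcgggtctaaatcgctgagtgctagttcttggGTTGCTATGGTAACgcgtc
Cfap58: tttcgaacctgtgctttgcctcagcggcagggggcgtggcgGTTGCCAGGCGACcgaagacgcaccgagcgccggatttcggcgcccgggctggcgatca
Dnah10: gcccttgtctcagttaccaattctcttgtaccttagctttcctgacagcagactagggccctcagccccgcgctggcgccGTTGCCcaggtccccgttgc
Cfap43: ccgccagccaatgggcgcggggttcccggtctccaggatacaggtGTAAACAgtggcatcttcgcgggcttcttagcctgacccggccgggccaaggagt

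The motifs were searched on both strands from 250 bases before to 50 bases after each RefSeq start, and 44 of the 50 genes had such a window. The short RFX motif GTTGCC lay in the window of 16 of the 44 genes (36.4%), against 14.1% of the 27025 genes with a window. An X-box lay in 5 of the 44 (11.4%), against 1.75% of all genes with a window, and these were *Cfap44*, *Cfap45*, *Cfap58*, *Rsph3b* and *Tekt2*. The X-box overlaps the short RFX motif in 4 of these 5 genes, all but *Cfap45*. The forkhead motif was in 4 of 44 (9.09%), against 4.05%, in *Cfap20*, *Cfap43*, *Dnah17* and *Tekt3*. Genes of intraflagellar transport, the traffic that builds all cilia, had the short RFX motif in 45.8% and an X-box in 8.33% of 24 windows. Genes of the primary cilium and its transition zone had them in 44.4% and 22.2% of 27 genes with a window, and 77 further axonemal genes in 48.1% and 23.4%, both shares above those of the 44 genes. The 11 astrocyte genes with a window had the short RFX motif in 18.2% and no X-box. A match is a description of these letters and says nothing of binding, and a link between the motifs and the RNA levels was not tested.

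All 50 genes had at least 1 read in some library. Between 21704891 and 32933975 reads were assigned to genes in a library, and the reads were recovered from the deposited CPM, which are reads relative to the size of the library, scaled by the authors with factors between 0.974 and 1.02. With a mean of at least 0.5 CPM over the 6 libraries, 47 genes could be tested. The 3 below it were *Tekt2*, with 3 to 14 reads per library, the sperm dynein heavy chain *Dnah8*, with 0 to 28 reads, and *Rsph6a*, a testis relative of *Rsph4a*, with 0 to 5 reads. *Dnah17*, another heavy chain of the sperm flagellum, passed this minimum at 1.46 ± 0.299 CPM (SD, n = 3) after PBS. *Dnah8*, *Dnah17* and *Rsph6a*, all known mainly from the sperm tail, had the 3 lowest levels per transcript length.

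Levels of different genes were compared in TPM, which correct for library size and transcript length. Together the 50 genes made up 1748, 1976 and 1800 TPM in the PBS libraries 1 to 3 and 2049, 2164 and 2931 TPM in the DT libraries 1 to 3, the order used for all values below. This is 0.175 to 0.293% of the TPM total. The lowest DT sum lay above the highest PBS sum, and the DT replicate 3 library stood highest. The 15 astrocyte marker genes examined summed to between 42197 and 47660 TPM, from *Sox9* at a mean of 336 TPM to the glutamate transporter *Slc1a2* at 9657 TPM. These 50 genes were therefore a small part of the RNA, with a sum far below that of these astrocyte markers in every library. Sums of chosen markers do not give the share of a cell type. Bulk RNA does not show which cells held them.

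*Rarres2*, which encodes the secreted protein chemerin, had the highest level of the 50 genes, at a mean of 285 TPM over the 6 libraries. *Cfap36* (244 TPM) and *Ccdc153* (179 TPM) followed, and then *Foxj1*, *Rsph9*, *Rsph1* and *Cfap20* at 115, 112, 107 and 101 TPM. The last 4 do not differ beyond their spread over libraries, since the SD of *Foxj1* alone was 13.7 TPM in the PBS group and 42.2 TPM in the DT-treated group. In the PBS group the median gene of the 47 had 20.0 TPM, beside the 22.1 TPM of the median of all 15137 genes tested. The long dynein heavy chains were lower per length, with *Dnah6* at a mean of 21.3 TPM and *Dnah9* at 18.5 TPM.

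Most motile cilia genes had more RNA in the DT libraries than in the PBS libraries, and none passed the test. Of the 47 genes, 44 had a higher mean of log2 values in the DT-treated group, as did 48.7% of all genes tested. On the scale of log2(CPM + 0.1), the median log2 fold change of DT over PBS (log2FC) was 0.42 for the 47 genes, against -0.0052 for all genes tested. With limma and an adjusted p-value under 0.05, 0 of 47 were higher and 0 were lower, where 0.555% of all genes tested were higher and 0.159% lower (0.713% in either direction). At an unadjusted p-value under 0.05, 21 of the 47 were higher and 0 lower, against 5.91% and 4.51% of all genes. For 19 of the 47 the 3 DT values were all above the 3 PBS values, against 8.75% of all genes, and the reverse held for 0, against 7.57%. These genes share their libraries and are not independent of each other, so the counts describe 6 libraries and not 47 separate trials.

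Tests on the recovered reads gave different counts. DESeq2 called 7 of the 47 higher at an adjusted p-value under 0.05, against 1.50% of all genes it tested. The 7 were *Dnah11* (log2FC 0.66, adjusted p = 0.00714), *Dnah10* (0.63, adjusted p = 0.00934), *Ccdc40* (0.65, adjusted p = 0.0102), *Drc7*, *Cfap44*, *Rsph4a* and *Foxj1* (0.58, adjusted p = 0.0489). The exact test of edgeR called *Dnah11*, *Dnah10* and *Ccdc40*, against 1.26% of all genes. The quasi-likelihood test of edgeR called 0 of 47 higher, against 0.575%. The call thus depends on the test, and the fold changes themselves differed little.

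**Figure D1:**
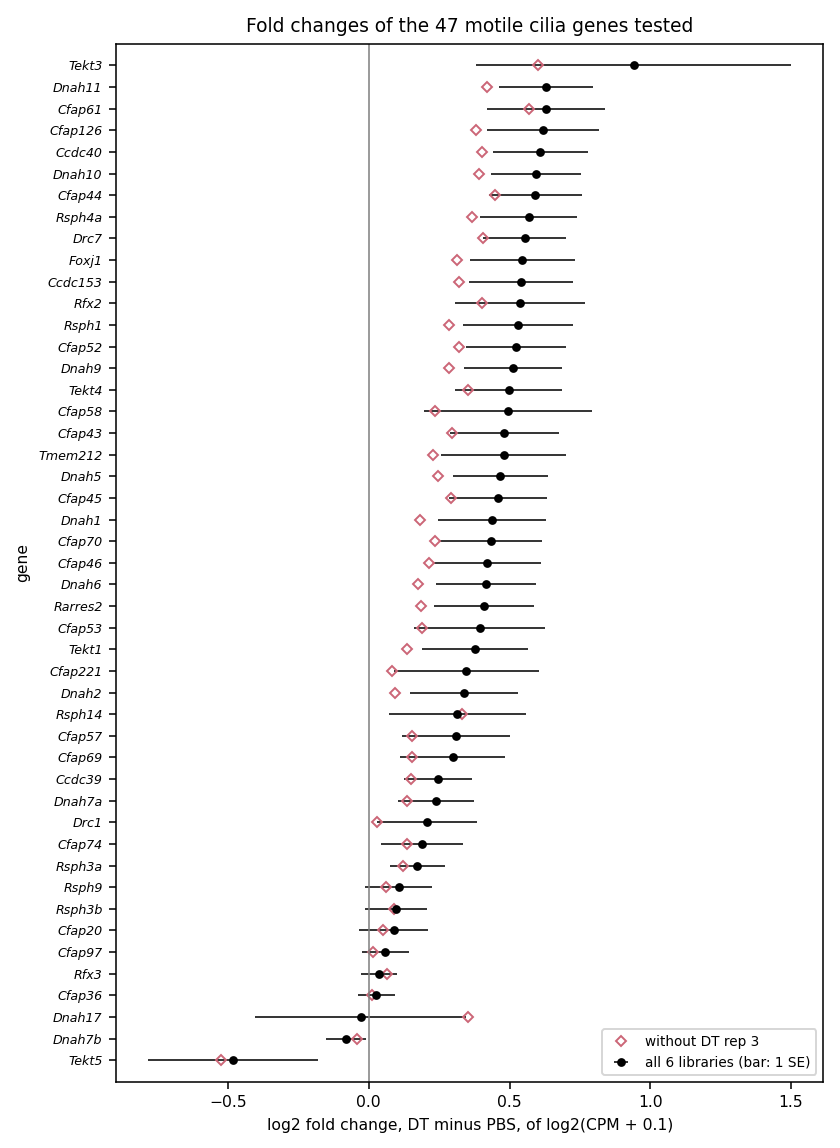
The log2FC of each of the 47 motile cilia genes tested, DT minus PBS on the scale of log2(CPM + 0.1), is plotted as a black point with 1 standard error (SE) of limma, and open diamonds give the value without DT replicate 3. Points run from -0.48 for *Tekt5* to 0.94 for *Tekt3*, 44 lie right of 0, and most diamonds lie nearer to 0 than their points, with a median of 0.23.

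The transcription factors are given first. *Foxj1*, the forkhead factor that switches on motile cilia genes, had 77.8, 92.4 and 71.0 CPM in the PBS libraries and 94.1, 105 and 161 CPM in the DT libraries. The groups did not overlap, but the lowest DT library was within 2 CPM of the highest PBS library. Its log2FC was 0.55 (SE 0.19, limma adjusted p = 0.370), on 1545 to 3691 reads per library. With 3 against 3 libraries an exact two-sided permutation test of a single gene cannot go below p = 0.1. In mm10, *Foxj1* spans chr11:116330704-116335399 (minus strand).

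The 2 RFX genes were unlike each other. *Rfx3* had 199, 194 and 198 CPM after PBS and 219, 194 and 194 CPM after DT, and was level in all 6 libraries. Its log2FC was 0.04 (SE 0.06, adjusted p = 0.885). *Rfx2* had 25, 16.1 and 12.9 CPM after PBS and 21.0, 25 and 30.3 CPM after DT. The groups overlapped, since PBS replicate 1 lay with the DT libraries, and the log2FC of 0.54 had an adjusted p of 0.473. Within a library, the TPM ratio of *Rfx3* to *Foxj1* was 0.720, 0.590 and 0.782 after PBS and 0.653, 0.521 and 0.339 after DT, so the balance between these factors was lowest in DT replicate 3.

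The ependymal markers were, like *Foxj1*, highest in DT replicate 3. *Ccdc153* had 43.9, 58.6 and 56.8 CPM after PBS and 64.9, 66.8 and 104 CPM after DT, with no overlap and a log2FC of 0.54 (adjusted p = 0.368). *Tmem212* had 8.24, 8.38 and 6.57 CPM after PBS and 8.60, 9.46 and 15.3 CPM after DT (log2FC 0.48, adjusted p = 0.508), where the first DT library was hardly above the PBS libraries. *Rarres2* had 53.0, 58.7 and 62.6 CPM after PBS and 71.3, 61.0 and 105 CPM after DT (log2FC 0.41, adjusted p = 0.473), and here the groups overlapped. The TPM ratio of *Ccdc153* to *Foxj1* stayed between 1.34 and 1.90 over the 6 libraries, and that of *Rarres2* to *Foxj1* between 2.12 and 3.21. Over the same libraries *Foxj1* itself varied from 71.0 to 161 CPM.

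**Figure D2:**
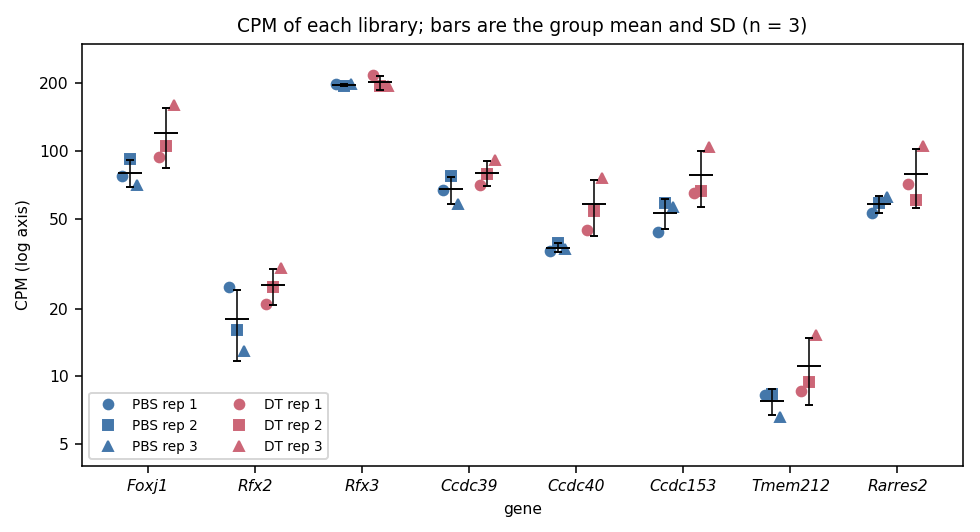
CPM on a log axis of the 8 genes named singly, with blue symbols for the 3 PBS libraries and red for the 3 DT libraries, the symbol shape for the replicate number, and bars for the group mean and SD (n = 3). The triangle of DT replicate 3 is the highest point for 7 of the 8 genes, and *Rfx3* is level near 200 CPM.

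Axonemal rulers set the spacing of the dynein arms along the doublets. *Ccdc40* had 35.9, 39.1 and 36.8 CPM after PBS and 44.5, 54.3 and 76.0 CPM after DT. The PBS libraries were within 4 CPM of each other and all DT libraries were above them, with a log2FC of 0.61 (SE 0.17, limma adjusted p = 0.241). Its partner *Ccdc39* had 67.3, 77.4 and 58.5 CPM after PBS and 70.6, 79.0 and 91.2 CPM after DT, which overlapped (log2FC 0.25, adjusted p = 0.533). The products of this pair act together, and the difference between their fold changes was not tested.

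Outer-arm dynein heavy chains are known to set the beat frequency. Of the 4 tested, 3 had all DT libraries above all PBS libraries, and the median log2FC was 0.49. *Dnah11* had 38.3, 43.7 and 36.5 CPM after PBS and 50.7, 54.9 and 81.5 CPM after DT, with a log2FC of 0.63 (SE 0.17, adjusted p = 0.211). *Dnah9* had 63.4, 72.0 and 76.1 CPM after PBS and 83.5, 88.1 and 137 CPM after DT (log2FC 0.51, adjusted p = 0.365). *Dnah5* had 65.1, 67.0 and 75.9 CPM after PBS and 84.6, 79.5 and 130 CPM after DT (log2FC 0.47, adjusted p = 0.393). These 3 are the heavy chains known from airway and ependymal cilia. *Dnah17* of the sperm flagellum had 1.15, 1.75 and 1.47 CPM after PBS and 1.88, 1.85 and 0.785 CPM after DT. It was lowest in DT replicate 3, where *Dnah11*, *Dnah9* and *Dnah5* were highest. It rested on 18 to 58 reads per library.

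Inner-arm heavy chains shape the bend. Of these 6 genes, 5 had a log2FC above 0, and the median was 0.38. *Dnah10* had 41.5, 41.8 and 47.2 CPM after PBS and 55.5, 58.4 and 87.1 CPM after DT (log2FC 0.59, SE 0.16, adjusted p = 0.217), with no overlap. *Dnah6* had 72.1, 81.1 and 77.6 CPM after PBS and 85.7, 87.7 and 143 CPM after DT (log2FC 0.42, adjusted p = 0.471), also with no overlap. *Dnah7b* was the exception, with 70.4, 68.8 and 63.0 CPM after PBS and 66.0, 64.7 and 60.5 CPM after DT (log2FC -0.08, adjusted p = 0.754). Its near-identical copy *Dnah7a* had a log2FC of 0.24, and the ratio of *Dnah7b* to *Dnah7a* in TPM was 6.97 in PBS replicate 1 and 4.32 in DT replicate 3. Reads of the 2 copies cannot be assigned with certainty, so the level of each is uncertain.

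Radial spoke genes split by member. *Rsph4a*, a subunit of the spoke head, had 47.9, 62.3 and 57.0 CPM after PBS and 67.6, 75.4 and 109 CPM after DT (log2FC 0.57, adjusted p = 0.296). *Rsph1*, also of the spoke head, had 28.9, 37.6 and 35.3 CPM after PBS and 40.5, 41.8 and 68.4 CPM after DT (log2FC 0.53, adjusted p = 0.401). For both, all DT libraries lay above all PBS libraries. *Rsph9*, whose product is in the head too, had 39.0, 35.1 and 29.8 CPM after PBS and 39.2, 32.9 and 39.6 CPM after DT, with a log2FC of 0.11 (SE 0.12, adjusted p = 0.808). Its groups overlapped, and DT replicate 3 did not stand out. *Rsph3a* and *Rsph3b*, near-identical copies of a spoke stalk gene whose reads are likewise uncertain, had log2FC values of 0.17 and 0.10. The median of the 6 radial spoke genes tested was 0.24, the lowest of the role groups.

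The nexin-dynein regulatory complex links neighbouring doublets. *Drc7* had 31.2, 41.2 and 32.7 CPM after PBS and 45.2, 47.1 and 62.8 CPM after DT, with no overlap (log2FC 0.55, SE 0.15, adjusted p = 0.215). *Drc1* had 23.5, 27.1 and 30.6 CPM after PBS and 24.0, 31.4 and 39.6 CPM after DT (log2FC 0.21, adjusted p = 0.742). In *Drc1* the first DT library lay among the PBS libraries.

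Tektins are filamentous proteins inside the doublets. *Tekt1* had 18.4, 17.8 and 17.0 CPM after PBS and 18.9, 20.1 and 32.4 CPM after DT (log2FC 0.38, adjusted p = 0.534). *Tekt4* had 5.07, 7.05 and 6.80 CPM after PBS and 7.64, 8.35 and 10.9 CPM after DT (log2FC 0.50, adjusted p = 0.424). Both had no overlap between groups, though the DT replicate 1 value of *Tekt1* was within 1 CPM of a PBS value. *Tekt5*, a tektin of the sperm flagellum, had 3.04, 4.58 and 5.42 CPM after PBS and 4.06, 2.08 and 3.18 CPM after DT, and its log2FC of -0.48 (SE 0.30, adjusted p = 0.635) was the lowest of the 47. *Tekt3* had the highest, 0.94, with the largest SE, 0.56, on 12 to 88 reads. The extremes on both sides were thus genes with few reads.

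The cilia and flagella associated proteins are a mixed group, named for the organelle and not for a shared function. All 17 had a log2FC above 0, with a median of 0.42 and a range of 0.03 to 0.63, and in 4 of them all DT libraries lay above all PBS libraries. *Cfap126*, known as Flattop, had 17.4, 22.2 and 17.4 CPM after PBS and 23.8, 25.4 and 40.5 CPM after DT (log2FC 0.62, adjusted p = 0.341). *Cfap52* and *Cfap45*, which encode proteins inside the doublet, had log2FC values of 0.52 (adjusted p = 0.368) and 0.46 (adjusted p = 0.419). *Cfap43* had a log2FC of 0.48 (adjusted p = 0.441), and *Cfap44*, whose product works with that of *Cfap43*, had 0.59 (adjusted p = 0.243). At the other end, *Cfap36* had 132, 122 and 121 CPM after PBS and 120, 132 and 130 CPM after DT, a log2FC of 0.03 (SE 0.07, adjusted p = 0.928). *Cfap20* had 51.7, 37.2 and 41.2 CPM after PBS and 46.8, 42.2 and 48.2 CPM after DT (log2FC 0.09, adjusted p = 0.851). The group therefore ran from genes that were level across libraries to genes near the top of the whole set.

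The genes differed from library to library mostly as a block, with DT replicate 3 at the top. This library was the highest of the 6 for 39 of the 47 genes (83.0%), and for 19% of all genes tested. The lowest library was PBS replicate 1 for 24 genes (51.1%, against 17.7% of all genes) and PBS replicate 3 for 15 (31.9%, against 17.1%). Across the 38 genes with a mean of at least 10 CPM, each gene's CPM was divided by its own mean over the 6 libraries. The median of this relative level was 0.772, 0.932 and 0.849 in the PBS libraries and 0.966, 1.02 and 1.48 in the DT libraries. The SD of log2 CPM over the 6 libraries had a median of 0.36 for these genes and of 0.12 for all genes at that level. Once the median of the 38 genes in each library was subtracted, it was 0.14. That median came from the same 38 genes, so a fall was to be foreseen, and the step was not done for all genes.

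**Figure D3:**
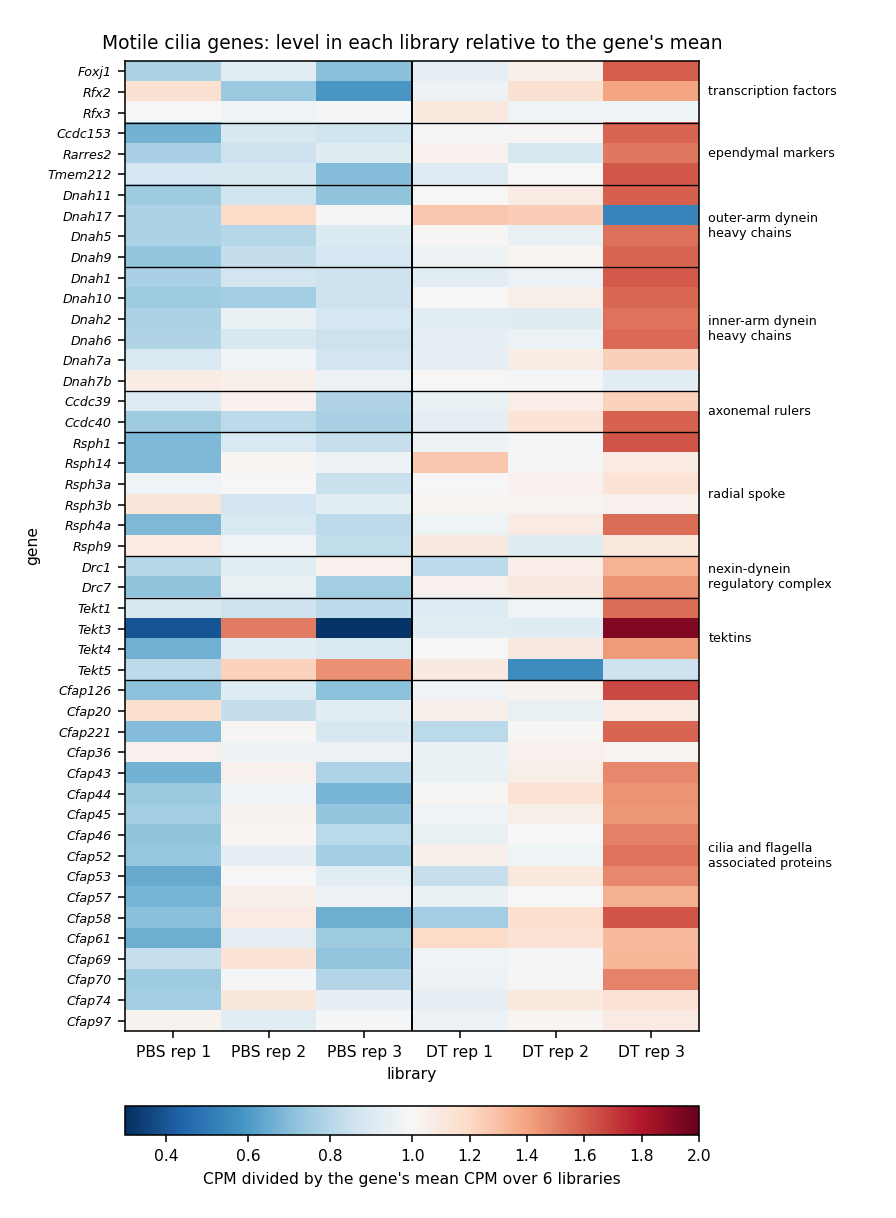
Each row is 1 of the 47 motile cilia genes tested, in groups by role, each column is 1 library, and the colour is the gene's CPM divided by its mean CPM over the 6 libraries, blue below and red above 1. Most rows are red in the DT replicate 3 column and blue in the columns of PBS replicates 1 and 3, while *Rfx3*, *Cfap36*, *Cfap97* and *Dnah7b* stay near white.

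The size of the excess differed between DT libraries. Relative to the PBS mean, the median of the 38 genes was 1.12-fold in DT replicate 1 (0.887 for *Drc1* to 1.29 for *Cfap52*), 1.17-fold in DT replicate 2 (0.949 for *Rsph9* to 1.46 for *Ccdc40*) and 1.77-fold in DT replicate 3 (0.898 for *Dnah7b* to 2.13 for *Cfap126*). In DT replicate 3, 25 of the 38 genes were at least 1.5-fold above the PBS mean, and in the other DT libraries 0 were. The 7 genes below 1.2-fold in DT replicate 3 were *Cfap20*, *Cfap36*, *Cfap97*, *Dnah7b*, *Rfx3*, *Rsph3b* and *Rsph9*. Against the mean of DT replicates 1 and 2, DT replicate 3 had a median of 1.49-fold.

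Without DT replicate 3, the median log2FC of the 47 genes was 0.23 in place of 0.42. A value above 0 was found for 45 of the 47 genes, and 0 were called, against 0.377% of all genes tested called higher. For 20 of the 47 (42.6%), DT replicates 1 and 2 both lay above every PBS library, against 12.3% of all genes. The size of the difference therefore rested largely on 1 library, and its direction was also present in the other 2. With all 6 libraries, the median over the genes varied between libraries of 1 group with a pooled SD of 0.26 on the log2 scale, beside a shift of 0.42. Without DT replicate 3 this SD was 0.13, beside a shift of 0.23. In bulk RNA, more cells of a type and more RNA per cell cannot be told apart.

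Further genes of the axoneme that the symbol rule does not reach had the same order of libraries. They were listed with results of these data known, so they are no independent check of that order. A set of 99 such genes covered the intermediate and light chains of the dynein arms, arm assembly factors, the central pair, other spoke and regulatory complex subunits and doublet proteins, from *Pih1d3*, with no read, to *Tubb4b*, a beta tubulin, at a mean of 698 TPM. Together the 99 genes made up 3333 to 3759 TPM in the PBS libraries and 3978 to 5463 TPM in the DT libraries. Of the 97 tested, 93 had a log2FC above 0, and the median was 0.39. By limma 0 of them passed the adjusted threshold and 40 were higher at an unadjusted p under 0.05, against 5.91% of all genes. DESeq2 called *Ccdc103*, *Lrrc23*, *Calml4* and *Tuba1a* higher, against 1.50% of all genes, and the exact test of edgeR *Ccdc103*, against 1.26%. DT replicate 3 was the highest library for 90 of the 97 (92.8%). For the 63 with a mean of at least 10 CPM, the relative level was 0.784, 0.928 and 0.858 after PBS and 0.945, 1.01 and 1.43 after DT. This was close to that of the 38 motile cilia genes with such a mean. Without DT replicate 3 the median log2FC was 0.22. All DT libraries lay above all PBS libraries for 40 of the 97, a share above the 8.75% of all genes.

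Genes that motile cilia share with primary cilia had smaller median differences. Of 29 genes of intraflagellar transport, 21 had a log2FC above 0, with a median of 0.07. DT replicate 3 stood at a relative level of 1.12 over the 25 with a mean of at least 10 CPM. Of 31 genes of the primary cilium and its transition zone, 16 were above 0, with a median of 0.05. DT replicate 3 stood at 1.02 over the 26 with such a mean. All DT libraries lay above all PBS libraries for 3 genes of the first list and 8 of the second, against 8.75% of all genes. The reverse held for 1 and 2 genes, against 7.57%. DT replicate 3 was the highest library for 16 of the 29 (55.2%) and 13 of the 31 (41.9%). Both shares were above that of all genes tested, and below that of the motile cilia genes. Neither list had a gene past the adjusted threshold of limma, edgeR or DESeq2. At an unadjusted limma p under 0.05, the first list had 2 higher genes and the second 3 higher and 2 lower. Over all genes tested, these shares were 5.91% higher and 4.51% lower. The 18 regulators of multiciliogenesis, the programme by which a cell makes many centrioles, had 14 tested genes with a median of 0.18. By limma, edgeR or DESeq2, 0 of these were called. At an unadjusted limma p under 0.05, 1 was higher, against 5.91% of all genes. *Mcidas* and *Foxn4* of that list had no read in any library.

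Markers of other cells were examined beside the cilia genes. Of 11 ependymal markers that are not part of the axoneme, from *Hdc* at 17.9 TPM to *Nnat* at 1180 TPM, 8 had a log2FC above 0, with a median of 0.08. None was called by limma or by the quasi-likelihood test of edgeR. At an unadjusted limma p under 0.05, 2 were higher and 1 lower, against 5.91% and 4.51% of all genes. Of the 11 markers, *Vim* was called higher by DESeq2, against 1.50% of all genes, and by the exact test of edgeR, against 1.26%. Their relative level ran from 0.930 in PBS replicate 2 to 1.19 in DT replicate 3, so this library was again the highest. It was the highest library for 7 of the 11 markers (63.6%), a share above that of all genes tested. All DT libraries lay above all PBS libraries for 4 of the 11, against 8.75% of all genes, and the reverse held for 0. Several of these markers, such as *Vim*, *Sox2* and *S100b*, are also made by astrocytes. The 9 tanycyte genes tested had a median of 0.02, and *Rax*, which defines tanycytes, had a mean of 0.379 TPM. The 9 tested genes of neural stem cells and neuroblasts had a median of 0.14. Of 13 genes known from sperm, 8 had no read in any library, *Odf1* among them.

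Choroid plexus epithelium, which is continuous with the ependyma, followed another order of libraries. *Ttr*, the transthyretin gene that defines it, had 152, 807 and 33.4 CPM after PBS and 1416, 917 and 489 CPM after DT. All 17 choroid plexus genes had a log2FC above 0, with a median of 1.51. By limma 0 were called, where 0.555% of all genes were higher, and 13 were higher at an unadjusted p under 0.05, against 5.91%. *Cldn2* was called by DESeq2, against 1.50% of all genes, and *Cldn2*, *F5* and *Steap1* by the exact test of edgeR, against 1.26%. All DT libraries lay above all PBS libraries for 6 of the 17, against 8.75% of all genes. Their summed level ran from 134 to 2094 TPM after PBS and from 1317 to 3532 TPM after DT. For the 5 of them with a mean of at least 10 CPM, the relative level was 0.375, 1.04 and 0.409 after PBS and 1.85, 1.44 and 0.888 after DT. PBS replicates 1 and 3 were thus low for both kinds of gene, whereas DT replicate 3 was the highest library for the cilia genes and the lowest DT library for the choroid plexus genes. The TPM ratio of *Ttr* to *Foxj1* varied between 0.993 and 31.8. The part of the choroid plexus content in the levels of the cilia genes was not tested.

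**Figure D4:**
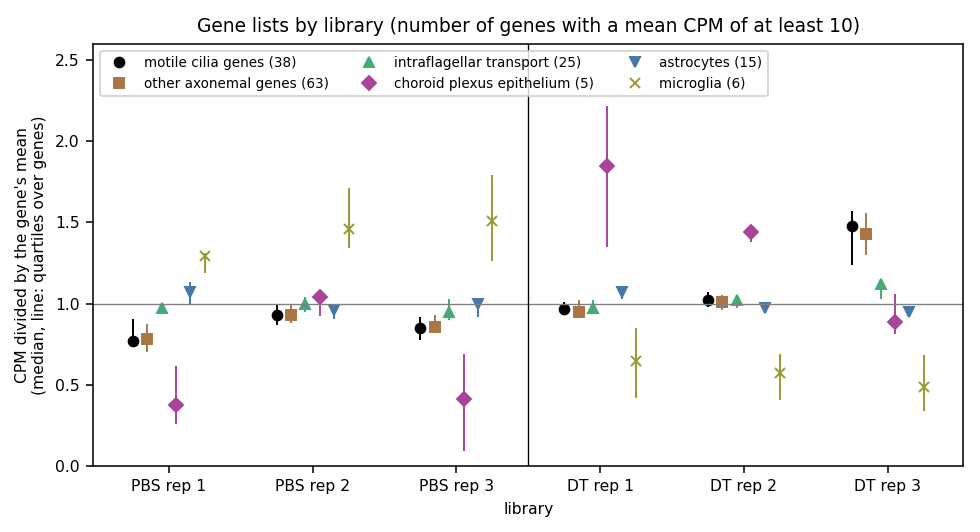
The median of the relative level (a gene's CPM divided by its mean over the 6 libraries) is plotted for 6 gene lists in each library. Lines give the quartiles over genes. Only genes with a mean of at least 10 CPM are included, and the legend gives their number. Motile cilia genes and the other axonemal genes lie together and are highest in DT replicate 3, at 1.48 and 1.43, choroid plexus genes are highest in DT replicate 1, at 1.85, and microglia genes are below 1 in all DT libraries.

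The treatment itself was visible in the other cell lists. *Siglech* was at 0.967, 2.14 and 1.93 CPM after PBS and had no read after DT. All 15 microglia genes had a log2FC below 0, and 8 fell by limma's adjusted threshold (among them *Siglech*, *P2ry12*, *Cx3cr1*, *Itgam*, *Csf1r*, *Ctss* and *Gpr34*), against 0.159% of all genes tested. With 1 library left out, of these named genes the call was lost for *Gpr34* whichever library it was (adjusted p = 0.0562 to 0.104), for *P2ry12* without any PBS library or DT replicate 2 (0.0766 to 0.102) and for *Siglech* without PBS replicate 2 (0.0616) or 3 (0.0546). For the 6 microglia genes with a mean of at least 10 CPM, the relative level was 0.644, 0.570 and 0.487 in the DT libraries. Of the 15 astrocyte genes, 8 had a log2FC above 0. By limma 1 was called higher, against 0.555% of all genes tested, and 0 lower. This was *Gfap*, with a log2FC of 1.93 (limma adjusted p = 8.2e-05). DESeq2 called 2 of the 15 higher and 1 lower, against 1.50% and 0.648% of all genes it tested. The relative level of the astrocyte list was between 0.947 and 1.07 in all libraries.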

How the data were processed

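RNA of hippocampal astrocytes from 3 PBS and 3 DT libraries was analysed. The authors sequenced stranded libraries, trimmed reads with Trim Galore 0.5.0, mapped them to mm10 with HISAT2 2.1.0, removed ribosomal reads with BEDTools 2.25.0, and computed values per gene with StringTie 1.3.5 and edgeR 3.24.3. The authors deposited CPM, treated here as a signal because the library sizes had been scaled with TMM factors, and TPM per gene and library, beside test columns of their own (p, q and log fold change), which were not used. The design had assumed plain CPM. The names of 27 genes appeared as dates. Whole reads, within 0.05 read, were recovered for 100% of values.

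Genes with a mean of at least 0.5 CPM were compared on log2(CPM + 0.1) by a two-sided test in limma 3.58.1 (R 4.3.3) that lets the variance depend on the level, adjusted by Benjamini-Hochberg over all 15137 genes tested (threshold 0.05). The scale understates changes of genes with few reads. The fits were repeated with a pseudocount of 0.5 or 1, a minimum of 2 CPM or none, on TPM, after quantile normalization, without the variance trend, with replicate numbers as blocks, without each library in turn, and with edgeR 4.0.16 and DESeq2 1.42.0 on the recovered reads. The counts without DT replicate 3 were added after the values had been seen.

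The 50 genes and all lists were chosen with earlier results of these data known. Named with values are the genes chosen singly, the 3 of each role group (6 for *Cfap*) with the highest mean TPM, the up to 5 with the lowest log2FC, and list genes that passed the threshold or had the highest or lowest level. *Tekt3*, *Cfap44*, *Cfap97*, *Rsph3a*, *Rsph3b*, *Dnah7a*, *Dnah8*, *Rsph6a*, *Tekt2* and *Cfap58*, and the list genes called by DESeq2 or the exact test of edgeR, were singled out after their values had been seen. Libraries are pools of mice from separate experiments, the numbers of which were not taken to pair them (correlations of 0.115, 0.0105 and 0.118 between libraries of the same number).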

Additional observations from a re-analysis of the deposited data

How the results depend on the processing

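Across all alternatives 0 motile cilia genes were called lower. The number called higher was 0 with limma under every alternative and with the quasi-likelihood test of edgeR, 3 with the exact test of edgeR and 7 with DESeq2. The median log2FC of the 47 genes ranged from 0.228 without DT replicate 3 to 0.5545 without DT replicate 1. Over all genes, 84 were higher and 24 lower. This became 5 and 1 with no filter on low values, 35 and 11 without the variance trend, 191 and 72 with the exact test of edgeR and 227 and 98 with DESeq2. With 1 library left out it was 39 to 72 higher (39 without DT replicate 1, 40 without DT replicate 2) and 9 to 20 lower (11, 9 and 10 without PBS replicates 1, 2 and 3, and 10 without DT replicate 2). The causes were not tested. Of 44 genes with a promoter window, 16 held the short RFX motif and 5 the X-box.

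The deviations of libraries numbered 2 correlated at 0.0105, and those of PBS replicate 2 and DT replicate 1 at 0.0107, while replicates 1 and 3 correlated best with their own number. Adding the replicate block to the fit gave 79 higher and 30 lower genes, 0 of them motile cilia genes, and the median log2FC of the 47 was 0.42. Genes near 0 changed sign. *Dnah17* was at 0.0015 with a pseudocount of 1, 0.0483 and 0.0484 with the quasi-likelihood and exact tests of edgeR and 0.0474 with DESeq2, and at -0.2256 to 0.3542 with 1 library left out. In the same fits *Cfap20* ran from -0.0148 to 0.2227, *Cfap36* from -0.0012 to 0.0678 and *Rfx3* from -0.0209 to 0.0660. Over the alternatives of the named genes, 597 values kept their direction and side of the threshold. A further 29 lost a call, all for microglia genes or *Gfap*, and *Gfap* did so only with no filter (adjusted p = 0.121). The 9 that gained a call were motile cilia genes under the exact test of edgeR or DESeq2.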
